A study of Mus musculus with 12 samples.

Results

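Haemostasis is the balance between forming a clot and keeping blood fluid, and much of it is run by proteins that endothelial cells make. The genes described are 8 of the 32285 genes counted in mouse lymph node: Vwf, F8, Thbd, Procr, Tfpi, Plat, Plau and Serpine2. They were chosen by gene symbol as a haemostasis and fibrinolysis set, with the label difference of Serpine2 in high endothelial cells already known, so that difference is given below as values without a test. A high endothelial venule (HEV) is the lymph node vessel through which lymphocytes leave the blood.

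Von Willebrand factor (Vwf) is the adhesive protein that tethers platelets and carries coagulation factor VIII (F8), the cofactor that speeds the activation of factor X. Thrombomodulin (Thbd) turns thrombin into an activator of protein C, the endothelial protein C receptor (Procr) presents protein C to that complex, and tissue factor pathway inhibitor (Tfpi) blocks the start of coagulation. Tissue plasminogen activator (Plat) and urokinase (Plau) make plasmin, which dissolves fibrin. Serpine2, also called protease nexin-1, inhibits thrombin and both plasminogen activators.

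The mice were C57BL/6, 7 to 10 weeks old, and all carried ATG12 fl/fl, with floxed alleles of an autophagy gene. They were typed CDH5 CreER positive or negative, a tamoxifen-dependent Cre driven by an endothelial cadherin gene, and tamoxifen was given 5 times. Oxazolone, a contact sensitiser, was put on the shaved abdomen at 4% in 3:1 acetone and olive oil, 50 ul per area, and nodes were taken 3 or 7 days later. Vehicle mice received the solvent alone. After bead depletion of CD45-positive cells, both the depleted fraction (CD31 libraries) and the bead-bound fraction (CD45 libraries) were sorted by flow cytometry and sequenced by 10x 3′ counting, which gave 12 libraries, 1 for each of 2 labels, 3 treatments and 2 fractions. How many mice entered a library, and of which sex, is not given in the sources used here. No group has a second library, so p-values below rest on the spread between libraries after treatment and label, or library, have been allowed for. The fits used 6 CD31 libraries, and fewer where libraries were left out or held too few cells. edgeR draws the spread of each gene towards that of all genes tested, so a p-value also rests on other genes.

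The CD31 libraries held 45438350 to 76187731 UMIs (unique molecular identifiers, 1 per captured RNA) and 5997 to 10553 cells after filtering. Endothelial clusters were named from marker lists: HEV-like, capillary-like, venous-like, arterial-like and lymphatic-like. The 3 large clusters of blood endothelium left without a class name are called by their leading genes Penk, Piezo2 and Prnd. Their sum was fitted after their Serpine2 levels were seen. Markers of tip-like (angiogenic) cells summed to 1654 to 2215, 2520 to 2895 and 2103 to 2639 CPM in them, beside 1189 to 2102 in arterial-like cells. Arterial markers summed to 4996 to 6276 CPM in the Penk cluster, beside 6109 to 9130 in arterial-like cells. Venous-like cells numbered 5 to 35 per library. Atg12, the floxed gene, stood above its Cre-negative partner in each Cre-positive library, in 15 of 15 pairs over HEV-like, capillary-like, arterial-like, lymphatic-like and unnamed blood cells, by 1.01 to 2.08 times. The pairs were 45.9 and 54.1, 43.9 and 52.6, and 44.1 and 44.6 CPM in HEV-like cells, where they were nearest, and 47.0 and 83.2, 51.1 and 73.5, and 39.5 and 81.9 in capillary-like cells. The 15 pairs come from the same 3 pairs of libraries. Of 9668 genes tested in all these classes, 32 (0.331%) were higher in the Cre-positive library in at least 14 pairs. A 3′ tag may lie outside the deleted part, so these levels cannot show whether the deletion took place. Why Atg12 was higher was not tested. Cre-positive and Cre-negative below mean the libraries so labelled. Cells with a UMI of a Y-linked gene made up 50.1% and 83.3% of HEV-like cells at vehicle, 35.5% and 44.0% at day 3, and 39.0% and 28.1% at day 7. Both vehicle libraries were above the other 4 in HEV-like, capillary-like, arterial-like and unnamed blood cells. In lymphatic-like cells the shares were 40.6% and 81.7%, 18.8% and 50.9%, and 32.1% and 22.5%, so the labels also differed at day 3. The mix of sexes thus differs between treatments and labels and cannot be told apart from them. Pairs of libraries shared 0.111% to 0.380% of the cell barcodes of the smaller one.

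A level below is the gene's UMIs in a class of a library, scaled to all UMIs of that class there (CPM). Levels are compared between classes for 1 gene, not between genes. Where 6 levels are given, they run from vehicle to day 3 to day 7, with Cre-negative before Cre-positive in each.

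In the GRCm38 annotation (GENCODE M21), Serpine2 lies on chromosome 1 at 79794197 to 79861180 on the minus strand, F8 on chromosome X at 75172715 to 75382615 on the minus strand, and Procr on chromosome 2 at 155751117 to 155755471 on the plus strand. Vwf is on chromosome 6, Thbd and Tfpi are on chromosome 2, Plat is on chromosome 8 and Plau on chromosome 14, and all 8 are protein-coding. At its 5′ end F8 overlaps 217 bases of Fundc2 on the opposite strand. Both processed pseudogenes within F8 are not among the counted features. The counting strand is not given in the sources used here, so F8 is less certain there than the other members.

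RefSeq (GRCm38.p6) gave a start for 4 members, and promoter sequence is shown for 3 of them whose levels separate vessel types: Serpine2, low in capillary-like cells, Tfpi, high in HEV-like cells, and Procr, high in venous-like and lymphatic-like cells. Each is the 250 bases before the start less those that GENCODE annotates as exon, and for Tfpi it is the outer of 2 starts. Capitals mark matches, on either strand, to the TATA box (TATAAA), the CCAAT box (CCAAT), the GC box (GGGCGG), the AP-1 motif (TGANTCA), the E-box (CACGTG) or an ETS motif (CCGGAAG).
Serpine2, chr1:79858697-79858915, minus strand: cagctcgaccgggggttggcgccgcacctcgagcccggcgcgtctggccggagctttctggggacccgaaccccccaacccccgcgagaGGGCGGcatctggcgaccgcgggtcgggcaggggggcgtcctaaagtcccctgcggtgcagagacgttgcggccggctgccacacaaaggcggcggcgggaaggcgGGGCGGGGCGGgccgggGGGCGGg
Tfpi, chr2:84476776-84477009, minus strand: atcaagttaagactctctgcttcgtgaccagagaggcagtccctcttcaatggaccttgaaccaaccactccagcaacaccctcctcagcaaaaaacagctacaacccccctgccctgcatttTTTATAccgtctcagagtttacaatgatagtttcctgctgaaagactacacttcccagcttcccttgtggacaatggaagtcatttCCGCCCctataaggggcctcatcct
Procr, chr2:155750967-155751116, plus strand: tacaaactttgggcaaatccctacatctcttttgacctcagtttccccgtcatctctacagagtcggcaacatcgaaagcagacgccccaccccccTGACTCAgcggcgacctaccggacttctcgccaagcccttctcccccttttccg

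Over 250 bases, the Serpine2 window held GC boxes and was 78.8% G and C, the Tfpi window held a TATA box and a GC box at 48.4%, and the Procr window held an AP-1 motif at 61.6%. The F8 window held none of the 6 motifs, and all 250 of its bases lie in a GENCODE exon of F8, so it is not shown. Of 32851 RefSeq windows of that length, 32.7% held a GC box, 12.4% a TATA box, 33.9% a CCAAT box, 6.75% an AP-1 motif, 6.02% an E-box and 6.91% an ETS motif. A match describes letters only.

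Vwf marked venous-like cells above every other class, although it was left out of the clustering. Its level there was 3993 CPM and 3001 CPM at vehicle, 2233 and 3221 at day 3, and 3618 and 2563 at day 7, of which the first and the last rest on 10 and 5 cells. In HEV-like cells it was 129, 239, 118, 104, 171 and 137 CPM. Every venous-like value lay above every HEV-like value, and every HEV-like value above every arterial-like one, which ran from 31.3 to 96.7 CPM. Capillary-like cells held 6.47 to 22.95 CPM, the 3 unnamed clusters together 5.65 to 9.57, and lymphatic-like cells 2.99 to 6.58, and these last ranges overlapped in part. A smaller unnamed cluster of blood endothelium, led by Rbp7 (1151 cells), held 29.7 to 97.4 CPM, about the arterial-like range. Of 6 platelet markers, Pf4, Ppbp, Gp9, Gp1bb and Treml1 had no UMI in venous-like cells, and Itga2b stood at 33.8 CPM. In HEV-like cells the same 6 markers summed to 72.1 to 155 CPM, mostly Pf4 at 48.7 to 137, and their part in the Vwf level there was not tested.

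F8 was the member with the widest gap between lymphatic-like and blood cells. In the lymphatic cluster led by Lyve1 its level was 1993, 2612, 1429, 1551, 2168 and 1746 CPM. The cluster led by Madcam1 held 424, 648, 290, 262, 532 and 435 CPM, and the one led by Ackr4 held 236, 413, 194, 210, 233 and 267. The Lyve1 cluster was above both others in all 6 libraries, and the Madcam1 cluster was above the Ackr4 cluster in each library as well. By median over libraries, F8 in blood vessels was highest in HEV-like cells (87.35 CPM, range 53.9 to 193). Venous-like cells overlapped them, with a median of 64.8 CPM (27.6 to 168, from 4 to 18 UMIs) in the 4 libraries with at least 20 such cells. The highest venous-like value lay above all HEV-like values but the day 7 Cre-negative one. Capillary-like cells held 8.19 to 16.6 CPM and arterial-like cells 6.58 to 23.3. The Piezo2 and Prnd clusters, at 42.4 to 71.2 and 25.8 to 54.8 CPM, overlapped the HEV-like range, and the Penk cluster held 7.25 to 11.9. The share of lymphatic-like cells that came from the Lyve1 cluster ranged from 5.80% to 19.3% between libraries, and F8 over all lymphatic-like cells was 377 to 951 CPM. The part of that mix in the level was not tested.

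**Figure D1:**
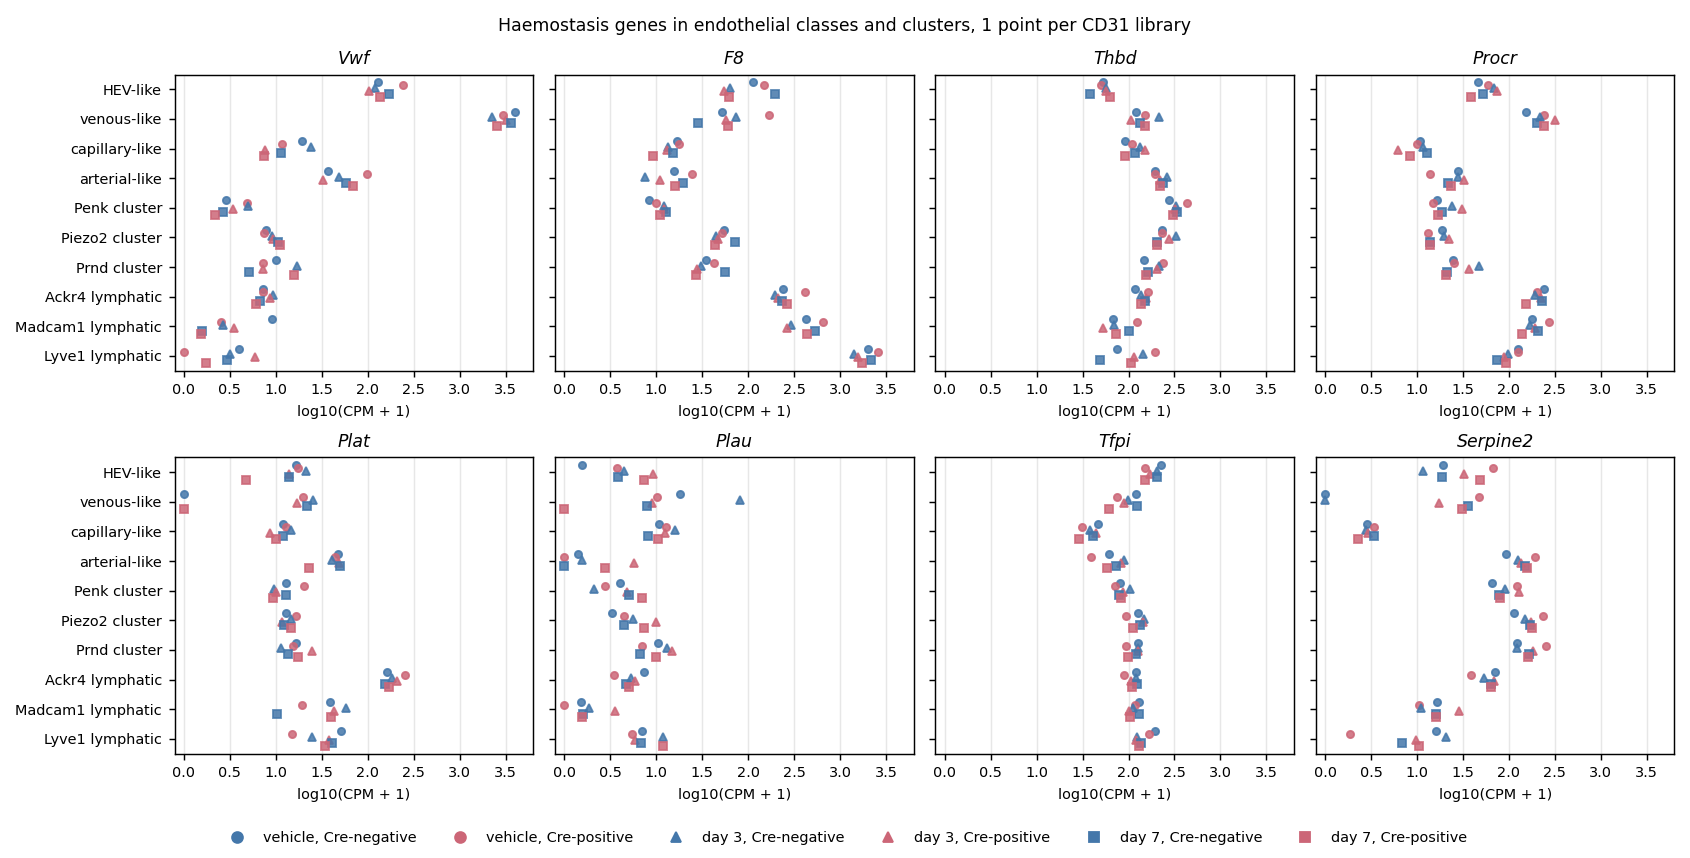
Level of each of the 8 genes, log10(CPM + 1) on the horizontal axis, in 10 endothelial classes or clusters, with 1 point for each of the 6 CD31 libraries (shape, treatment; colour, label; venous-like points of 5 and 10 cells included). Vwf separates venous-like cells at 2233 to 3993 CPM, F8 the 3 lymphatic clusters, and Serpine2 stays at 1.29 to 2.42 CPM in capillary-like cells.

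Among the anticoagulant members, Thbd was lower in HEV-like cells than in the other blood classes, at 52.2, 48.8, 56.1, 56.5, 37.1 and 61.3 CPM. Capillary-like cells held 90.1 to 151 CPM and arterial-like cells 195 to 259, and the Penk cluster 276 to 427, and none of these 4 ranges overlapped. The Piezo2 cluster, at 202 to 330, overlapped both the arterial-like and the Penk range, and the Prnd cluster held 145 to 236. Thbd in lymphatic-like cells, 99.7 to 153 CPM, overlapped the capillary-like range.

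Procr was high in venous-like cells (154 to 315 CPM) and lymphatic-like cells (140 to 218), whose ranges overlapped. Procr in HEV-like cells was 44.8, 57.7, 67.8, 72.3, 51.8 and 38.0 CPM, above arterial-like cells at 12.95 to 31.1 and capillary-like cells at 5.29 to 11.8. Tfpi was high in HEV-like cells, at 226, 149, 205, 170, 205 and 151 CPM, above lymphatic-like cells at 107 to 127 in every library. The Lyve1 lymphatic cluster alone, at 121 to 194 CPM, overlapped the HEV-like range. Arterial-like cells held 38.0 to 89.3 CPM of Tfpi and capillary-like cells 27.6 to 45.8, and these overlapped. The Piezo2 and Prnd clusters, at 93.1 to 147 and 91.85 to 126 CPM, lay above every arterial-like and below every HEV-like value. The Penk cluster held 70.0 to 103.

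Of the plasminogen activators, Plat was a gene of the Ackr4 lymphatic cluster, at 160, 255, 184, 206, 154 and 171 CPM, while the Madcam1 and Lyve1 clusters held 9.41 to 57.2 and 14.1 to 50.8. Arterial-like cells held 21.7 to 49.5 CPM of Plat and HEV-like cells 3.77 to 20.5. The unnamed cluster led by Rbp7 held 43.25 to 78.4 CPM, with a median of 54.6 beside 44.7 in arterial-like cells. Plau was sparse in endothelium, with 1 venous-like value of 81.2 CPM from 10 UMIs at day 3. It reached 7.10 to 15.2 CPM in capillary-like cells, from 9 to 59 UMIs per library, and 0.571 to 8.26 CPM in HEV-like cells, from 2 to 49 UMIs.

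Serpine2, the inhibitor, was low in every library of capillary-like cells, at 1.29 to 2.42 CPM from 3 to 7 UMIs. Venous-like cells had 0 UMIs in 2 libraries and 1 to 5 in the others. Arterial-like cells held 93.0, 191, 125, 133, 149 and 154 CPM. The Piezo2 cluster held 114, 233, 148, 171, 169 and 178 CPM, the Prnd cluster 120, 254, 121, 184, 164 and 161, and the Penk cluster 64.1 to 129. Its levels in the Piezo2, Prnd and arterial-like groups overlapped, and lymphatic-like cells held less, at 19.8 to 51.1 CPM.

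The class differences were fitted on UMI sums with library as a block (edgeR quasi-likelihood, Benjamini-Hochberg adjusted over all genes tested). The filter on low counts was grouped by class, so a gene could enter a contrast through the class where it is high. The classes come from clustering the same cells, with these 8 genes and 50 others of haemostasis left out of the clustering, and a large share of all genes was called in each contrast, given below, so a call says little about these members. The blood classes set against lymphatic-like cells were the mean of HEV-like, capillary-like and arterial-like cells, without venous-like cells and the unnamed clusters. Lymphatic-like minus these blood classes, 5 members were higher and 1 lower, where 32.3% and 29.9% of 12532 genes were called higher and lower. F8 was higher by 4.23 ± 0.14 (log2, SE), Procr by 2.88 ± 0.10 and Plat by 2.51 ± 0.13, with adjusted p of 3.2e-18, 8.5e-18 and 2.01e-14, and Vwf fell by 3.57 ± 0.26. The call of Serpine2, 0.83 ± 0.26 higher, did not hold without the vehicle Cre-negative library (0.64 ± 0.28, adjusted p = 0.056) nor in cells with Y-linked UMIs (0.37 ± 0.31, adjusted p = 0.331). It averages a very low level in capillary-like cells (1.29 to 2.42 CPM) with a high one in arterial-like cells (93.0 to 191). Lymphatic-like cells, at 19.8 to 51.1 CPM, lay below every arterial-like value and below the unnamed clusters together (102 to 211), which were not in the contrast.

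HEV-like minus capillary-like and arterial-like cells, 5 members were higher and 1 lower, with 33.1% and 32.8% of all genes called higher and lower. F8 was higher by 3.11 ± 0.18, Vwf by 2.73 ± 0.19, Procr by 2.18 ± 0.13, Tfpi by 2.17 ± 0.10 and Serpine2 by 1.11 ± 0.33, and Thbd was lower, at -1.33 ± 0.10. The Serpine2 value averages a higher level than in capillary-like cells and a lower one than in arterial-like cells. Plat (-0.32 ± 0.19) and Plau (0.17 ± 0.34) did not pass.

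Arterial-like minus capillary-like cells, 6 members were higher and 1 lower, against 22.3% and 20.3% of all genes. Serpine2 had the widest gap of the set, 6.16 ± 0.42, and Plau, at -2.81 ± 0.45, the next in size. Within capillary-like cells Serpine2 did not pass the filter on low counts, nor did Plau within arterial-like cells. Each thus entered through its high class, and the size of its gap rests on few UMIs in the low one. Vwf was higher by 1.995 ± 0.28 and Plat by 1.93 ± 0.23. F8 did not pass (0.07 ± 0.29). Venous-like minus capillary-like cells, fitted in the 4 libraries with at least 20 venous-like cells, 4 of 6 members tested were higher and none lower, against 12.3% and 11% of 8089 genes. Vwf was higher by 7.82 ± 0.25 and Procr by 4.73 ± 0.27.

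The other haemostasis list held 50 genes in 5 groups, of which 21 passed the filter on low counts in the class fit. The other 29 did not, among them the fibrinogen chains. HEV-like minus capillary-like and arterial-like cells, 14 were called higher and 3 lower, where 33.1% and 32.8% of all genes were. The median was 0.90, beside 1.64 for the members and -0.02 for all genes. These genes too could enter through the class where they are high. The largest differences were in F5 (7.77 ± 0.36), coagulation factor V, Selp (7.46 ± 0.26), the P-selectin of Weibel-Palade bodies, Nt5e (5.46 ± 0.34), which makes adenosine, and Thbs1 (3.92 ± 0.18), thrombospondin 1. Lymphatic-like minus blood classes, 11 were higher and 3 lower, beside 32.3% and 29.9% of all genes. The largest difference was in Entpd1 at -5.48 ± 0.19, an ectonucleotidase that breaks down platelet-activating ADP. Arterial-like minus capillary-like cells, 7 were higher and 5 lower, beside 22.3% and 20.3% of all genes. The largest differences were in F2rl1 (4.61 ± 0.56), a protease-activated receptor, and Hs3st1 (3.81 ± 0.19), a heparan sulfate sulfotransferase.

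By label, Serpine2 in HEV-like cells is the value the set was chosen on. It was 17.98 CPM (exact 95% Poisson interval 13.8 to 23) in the Cre-negative and 66.6 (58.4 to 75.6) in the Cre-positive vehicle library. At day 3 it was 10.7 (8.02 to 13.9) and 31.3 (27 to 36.2), and at day 7 it was 17.7 (14.9 to 20.96) and 47.1 (39.9 to 55.3). The Cre-positive library was higher at each treatment, by 3.70, 2.94 and 2.66 times, and the 3 libraries of each label did not overlap. Since the set was chosen on this difference, neither is independent support, and how many genes separate the labels so is not given here. The summed HEV markers, printed below beside F8, were lower in the Cre-positive library at each treatment. Their part in the Serpine2 levels was not tested.

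Serpine2 UMIs were found in 8.27% and 23.9% of HEV-like cells at vehicle, 8.39% and 13.1% at day 3, and 10.0% and 19.6% at day 7. Thinned to 1000 UMIs per cell the shares were 1.81% and 7.198%, 2.37% and 3.17%, and 2.33% and 3.595%. In B-cell-like cells, which should lack the gene, 0.208% to 1.32% of cells had a UMI at median depths of 2931 to 3662 UMIs, against 6814 to 10758 in HEV-like cells. Perivascular cells hold Serpine2 at 187 to 416 CPM, and their 6 markers summed to 0.628 to 4.89 CPM in HEV-like cells, with Rgs5 at 0 to 1.52 and Pdgfrb at 0 to 0.314. Intervals here cover counting error only.

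Outside HEV-like cells, Serpine2 was higher in the Cre-positive library at vehicle in arterial-like cells (93.0 and 191 CPM). It was 125 and 133 at day 3 and 149 and 154 at day 7, where the intervals of each pair overlapped. In the 3 unnamed blood clusters together it was 102 and 211 at vehicle, 120 and 163 at day 3, and 146 and 151 at day 7. The vehicle pair was the furthest apart in both. In lymphatic-like cells the vehicle pair ran the other way, with 51.1 and 19.8 CPM, and the later pairs were 35.3 and 45.7 at day 3 and 34.0 and 43.2 at day 7. The Ackr4 cluster made up 71.8% and 45.2% of the lymphatic-like cells of the vehicle libraries. Within that cluster Serpine2 was 69.1 and 37.3 CPM at vehicle, 53.2 and 68.5 at day 3, and 62.1 and 63.3 at day 7, with a fitted label difference of -0.09 ± 0.23 (adjusted p = 0.999). The part of the cluster mix in the lymphatic-like pair was not tested.

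**Figure D2:**
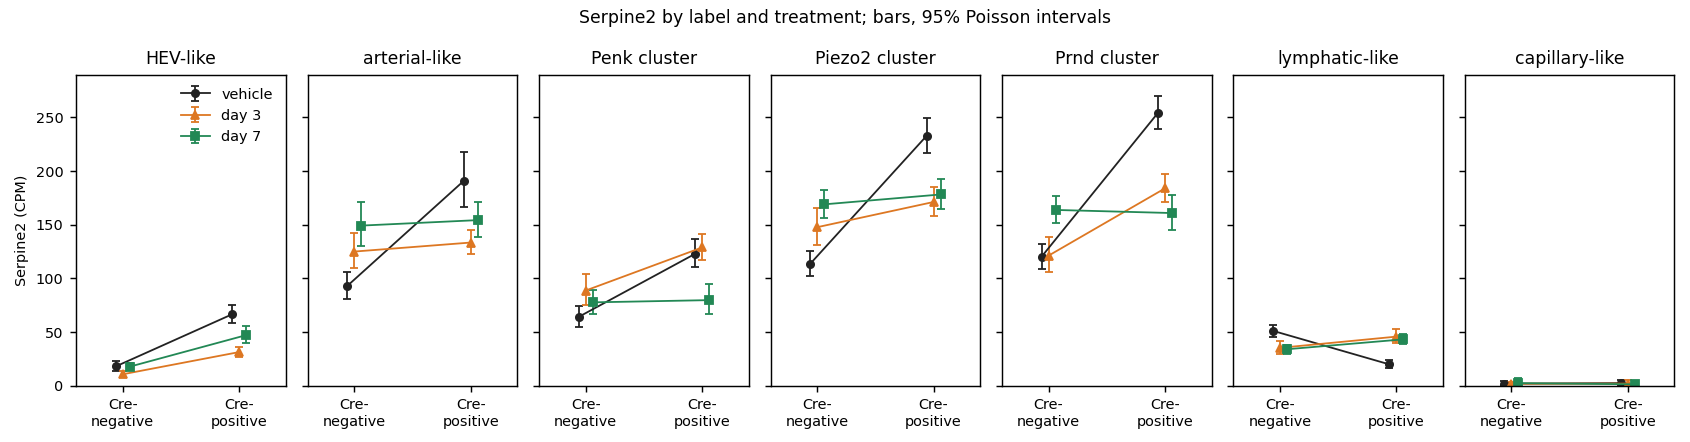
Serpine2 level (CPM, from 0) in Cre-negative and Cre-positive libraries of each treatment, in 7 endothelial classes or clusters, 1 library per point with its exact 95% Poisson interval. The HEV-like lines all go up, and the vehicle line goes up in arterial-like cells (93.0 to 191) and down in lymphatic-like cells (51.1 to 19.8), where the Ackr4 cluster was 71.8% and 45.2% of the cells.

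None of the members passed by label (edgeR, treatment as a term) in arterial-like cells, where 0.0485% of 10308 genes did, in capillary-like cells (0.132% of 10641), in lymphatic-like cells (0.00775% of 12896) or in the unnamed clusters (0.0618% of 12951). At an unadjusted p under 0.05 they were 1 of 7, 1 of 7, 0 of 8 and 2 of 8, beside 298, 434, 325 and 445 of all genes tested, and DESeq2 called 0 in each. Serpine2 was 0.43 ± 0.16 higher in Cre-positive arterial-like cells (adjusted p = 0.998) and 0.56 ± 0.17 in the unnamed clusters (adjusted p = 1). Without the day 7 pair the unnamed clusters gave 0.82 ± 0.18 (adjusted p = 0.000559), without the vehicle pair 0.28 ± 0.13 (adjusted p = 0.92) and without the day 3 pair 0.59 ± 0.26 (adjusted p = 1). The sum of these clusters was chosen after its Serpine2 level was seen, so that p is no independent support. Vwf in capillary-like cells was -1.09 ± 0.27 (adjusted p = 0.315), at 18.4 and 10.7 CPM, 22.95 and 6.73, and 10.3 and 6.47.

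Tfpi was lower in the Cre-positive library in 14 of 15 pairs over HEV-like, capillary-like, arterial-like, lymphatic-like and unnamed blood cells, which share the same 3 pairs of libraries. The exception was day 3 in capillary-like cells. Serpine2 was higher in 13 of the 15 pairs, but 3 of these are the HEV-like pairs on which the set was chosen. Plau was higher in 11, Plat in 9, Thbd in 8, F8 in 7, and Procr and Vwf in 6. Of 9668 genes tested in all 5 classes, 45 (0.465%) were lower in the Cre-positive library in at least 14 pairs and 32 (0.331%) higher. Serpine2 was not tested in capillary-like cells nor Plau in arterial-like cells, so neither is among these genes. No share is given for counts under 14. Tfpi was singled out after these counts were seen. No fit called it: Tfpi was -0.28 ± 0.15 in arterial-like and -0.12 ± 0.16 in lymphatic-like cells, with adjusted p of 0.998 and 1. In HEV-like cells, where no label test was made, the ratio of Cre-positive to Cre-negative was 0.658, 0.829 and 0.739.

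Few members differed from vehicle after oxazolone, and none passed at day 7. The day 3 and day 7 comparisons share the vehicle libraries. In HEV-like cells Serpine2 fell by 0.96 ± 0.19 at day 3 (adjusted p = 0.0484), the 1 member of 8 called where 2.43% of 11429 genes were. At an unadjusted p under 0.05 there were 4, beside 2751 of all genes, and DESeq2 called 0, with no adjusted p for Serpine2. Both day 3 libraries were below the vehicle library of their label, but the groups overlapped, because the labels differ by more. The call did not hold with RLE size factors (-0.96, adjusted p = 0.0508), without cells that carry other-type markers (-0.79, adjusted p = 0.0518), with free RNA subtracted (-0.96, adjusted p = 0.0542), or in cells with Y-linked UMIs, where the difference was -0.43 ± 0.24 (adjusted p = 0.479). It was also lost without the vehicle Cre-positive library (-0.64 ± 0.27) and without the day 3 Cre-negative (-0.95) or Cre-positive library (-0.94). Without the day 3 Cre-negative library, calls over all genes fell too (see the last section), so that loss says little of Serpine2.

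F8 did not pass in any class. In HEV-like cells its 6 levels were 112, 149, 63.1, 53.9, 193 and 60.3 CPM. Both day 3 libraries lay below both vehicle libraries, and at day 7 the Cre-negative library was the highest of all while the Cre-positive one lay between the day 3 levels. The day 3 difference was -1.20 ± 0.42 (adjusted p = 0.134), and -1.84 ± 0.29 (adjusted p = 0.000449) without the vehicle Cre-negative library, but -0.38 ± 0.33 (adjusted p = 0.63) without the vehicle Cre-positive one. Without either day 7 library it was -1.14 ± 0.19 (adjusted p of 0.0104 and 0.00543). The 8 HEV markers summed to 28000, 24150, 27860, 15030, 79760 and 16760 CPM in the same sums, so the library with the most F8 also had the most HEV marker RNA. Their part in the result was not tested.

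In each of the 3 lymphatic clusters taken alone, both day 3 libraries of F8 lay below all 4 others. The clusters come from the same libraries, so they are not independent cases. How many of all genes had this order is not given here. Over all lymphatic-like cells F8 was 379, 951, 377, 482, 620 and 556 CPM, so the day 3 Cre-positive library lay above the vehicle Cre-negative one, and the day 3 difference was -0.52 ± 0.37 (adjusted p = 0.993). The fitted differences were -0.61 ± 0.22 in the Lyve1 cluster (adjusted p = 0.318), -0.93 ± 0.29 in the Madcam1 cluster (0.703) and -0.61 ± 0.27 in the Ackr4 cluster (0.675). No member passed in these clusters at day 3, where 0.0221%, 0.00948% and 0.0797% of genes did. By label the shares of genes called were 0.0, 0.0 and 0.0354% and at day 7 they were 0.0 in each, again with no member. At an unadjusted p under 0.05 the members were 2 of 5, 1 of 6 and 1 of 8 at day 3, beside 1074 of 9045, 707 of 10546 and 789 of 11293 genes. At day 7 they were 3 of 5, 0 of 6 and 0 of 8, beside 358, 143 and 171 genes, and by label 1 of 5, 0 of 6 and 0 of 8, beside 330, 284 and 414. These clusters were fitted alone after their F8 levels were seen, and DESeq2 was not run on them.

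Free RNA in the CD31 libraries held F8 at 102, 212, 71.4, 43.9, 223 and 198 CPM, with both day 3 libraries lowest there too. It made up 0.977% to 1.97% of the UMIs of blood endothelial cells. With it subtracted, F8 in HEV-like cells at day 3 was -1.20 on the log2 scale. F8 is X-linked, and in cells with Y-linked UMIs the difference was -0.88 (adjusted p = 0.222). The 9 lymphatic markers summed to 3411 to 8014 CPM in HEV-like cells, beside 2592 to 3495 in lymphatic-like cells. Nearly all of it was the chemokine gene Ccl21a (3348 to 7979 CPM), with Prox1 at 1.997 to 5.39, Mmrn1 at 0.387 to 2.51 and Lyve1 at 17.35 to 66.6. Their sum, like F8, was highest in the day 7 Cre-negative library, and their part in the F8 level was not tested.

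**Figure D3:**
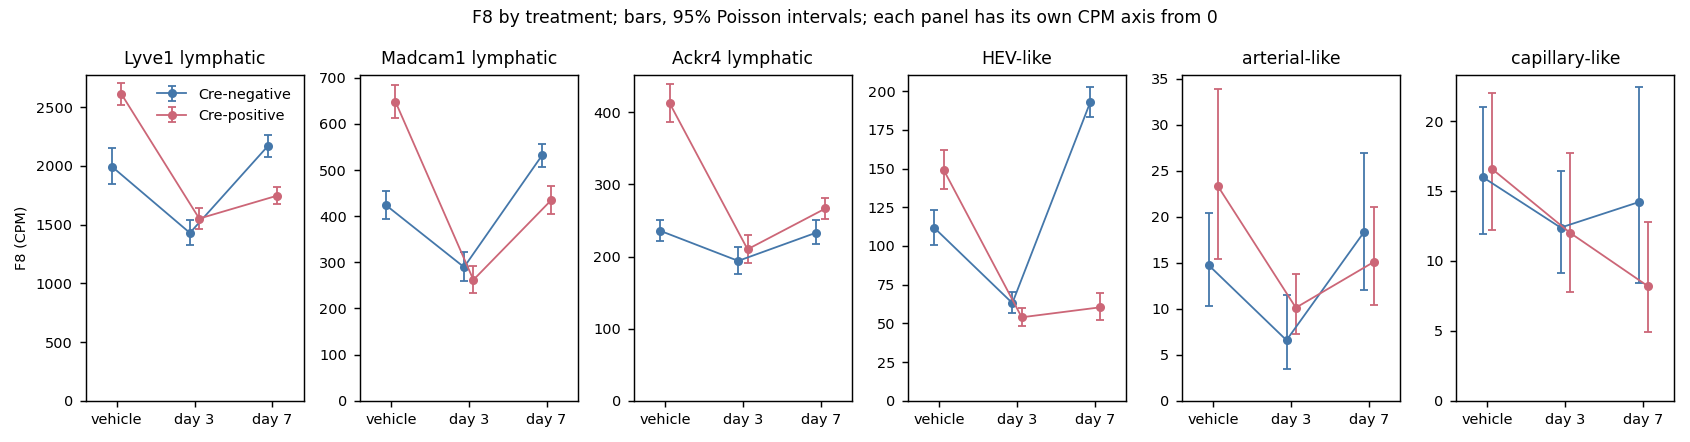
F8 level (CPM, each panel with its own axis from 0) by treatment in 6 endothelial classes or clusters, with 1 line per label and exact 95% Poisson intervals. Day 3 is the lowest point of both lines in the 3 lymphatic clusters, which come from the same libraries. In HEV-like cells the day 7 libraries part at 193 and 60.3 CPM.

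In arterial-like cells Tfpi rose by 0.84 ± 0.18 at day 3 (adjusted p = 0.00897), from 60.2 and 38.0 CPM to 89.3 and 81.1, with 71.4 and 57.2 at day 7. The day 3 libraries lay above both vehicle libraries, and how many of all genes did so is not given here. Tfpi was the 1 member of 7 called, where 5.42% of genes were. DESeq2 did not call it (0.86, adjusted p = 0.129), nor was it called in cells with Y-linked UMIs (0.50 ± 0.24, adjusted p = 0.436) or without the vehicle Cre-positive library (0.65, adjusted p = 0.0929). Nor was it called without the day 3 Cre-negative library (1.04) or without the Cre-positive one (0.66). Without the day 3 Cre-negative library, calls over all genes fell too (see the last section), so that loss says little of Tfpi. F8 there was -1.05 ± 0.34 (adjusted p = 0.0795), from 14.7 and 23.3 CPM to 6.58 and 10.1, and Vwf was -0.64 ± 0.28 (adjusted p = 0.226), from 36.4 and 96.7 CPM to 47.7 and 31.3. The day 3 library of Vwf was thus above its vehicle library in the Cre-negative label and below it in the Cre-positive one. Without the vehicle Cre-negative library Vwf was -1.37 ± 0.24 (adjusted p = 2.24e-06) and F8 -1.30 ± 0.44 (adjusted p = 0.0411). Without the vehicle Cre-positive library Vwf was 0.19 ± 0.26 (adjusted p = 0.855) and F8 -0.76 ± 0.46 (adjusted p = 0.504). Without either day 7 library Vwf passed with adjusted p of 0.0305 and 0.0322 and F8 with 0.0207 and 0.0214, and F8 also passed with no filter on low counts (adjusted p = 0.04). Procr, at 27.03 and 12.95 CPM at vehicle and 26.9 and 31.1 at day 3, was 0.52 ± 0.28 (adjusted p = 0.336). It was 1.31 ± 0.41 (adjusted p = 0.0234) without the vehicle Cre-negative library and 0.04 ± 0.32 (adjusted p = 0.987) without the Cre-positive one.

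Procr rose by 0.75 ± 0.14 in the 3 unnamed blood clusters at day 3 (adjusted p = 0.0426), from 19.2 and 17.5 CPM to 29.2 and 29.6, and was 16.8 and 15.7 at day 7. The day 3 libraries lay above all 4 others, an order whose share over all genes is not given here. Procr was the 1 member of 8 called, where 1.79% of genes were. The Prnd cluster held the highest of these levels, 46.3 and 36.0 CPM at day 3 beside 23.7 and 24.2 at vehicle. The call was lost with DESeq2 (0.75, adjusted p = 0.0885), in cells with Y-linked UMIs (0.55 ± 0.19, adjusted p = 0.219) and without the vehicle Cre-positive library (0.71, adjusted p = 0.137). The call was also lost without the day 3 Cre-negative library (0.84) and without the Cre-positive one (0.67). With 1 day 3 library left, calls over all genes fell too (see the last section), so a call lost there says little of Procr.

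**Figure D4:**
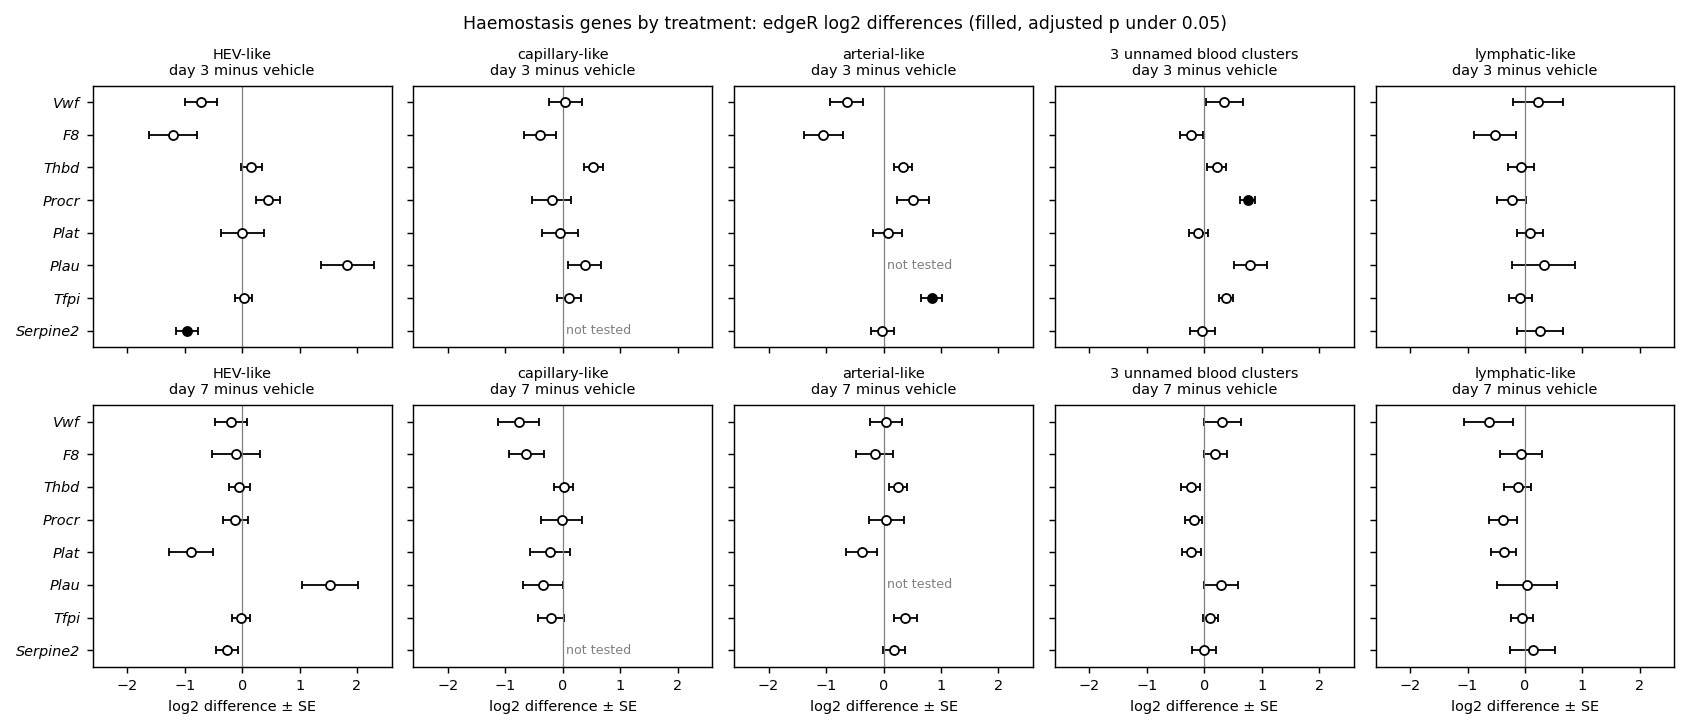
Fitted log2 difference from vehicle (horizontal axis, bars of 1 SE) of each gene at day 3 (top) and day 7 (bottom) in 5 groups of endothelial cells, filled where the adjusted p was under 0.05. The filled points are Serpine2 in HEV-like cells at -0.96, Tfpi in arterial-like cells at 0.84 and Procr in the unnamed clusters at 0.75, all at day 3.

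Plau in HEV-like cells was 0.571 and 2.77 CPM at vehicle, 3.48 and 8.26 at day 3, and 2.83 and 6.28 at day 7. The lowest value rests on 2 UMIs. The day 3 difference was 1.83 ± 0.46 and did not pass (adjusted p = 0.0724). Vwf in the same cells was -0.72 ± 0.28 (adjusted p = 0.167), from 129 to 118 CPM between the Cre-negative libraries and from 239 to 104 between the Cre-positive ones. It was -1.27 ± 0.17 (adjusted p = 0.000107) without the vehicle Cre-negative library and -0.05 ± 0.18 (adjusted p = 0.934) without the vehicle Cre-positive one. With no filter on low counts, Plau, Vwf and F8 passed there (adjusted p of 0.00579, 0.00153 and 1.07e-09). F8 was then -1.18 ± 0.17, beside -1.20 ± 0.42 with the filter. Far more of all genes were called in that setting too, as counted in the last section. Thbd in capillary-like cells was 90.1, 109, 132, 151, 115 and 91.0 CPM, a day 3 difference of 0.53 ± 0.16 that did not pass (adjusted p = 0.31). No member was called at day 3 in capillary-like cells (0.207% of genes called, with 1 of 7 members and 893 of 10641 genes at an unadjusted p under 0.05) or in lymphatic-like cells (0.0%, with 0 of 8 members and 640 of 12896 genes), and DESeq2 called 0 in both.

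At day 7 edgeR called no member in any class. The share of all genes called was 0.0% in HEV-like, arterial-like, lymphatic-like and unnamed blood cells and 0.047% in capillary-like cells. At an unadjusted p under 0.05 the members numbered 2 of 8 in HEV-like cells, 1 of 7 in capillary-like cells and 0 in the other 3. Of all genes tested, 327 of 11429 and 291 of 10641 were at that level in HEV-like and capillary-like cells. DESeq2 called 0 members in each.

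Of the other haemostasis genes at day 3, Anxa2 and S100a10, the 2 chains of a plasminogen and Plat receptor, rose in HEV-like cells by 0.98 ± 0.15 and 0.95 ± 0.16 (adjusted p of 0.0279 and 0.035), 2 of 19 tested beside 2.43% of all genes. Both calls were lost in cells with Y-linked UMIs (0.71 and 0.60, adjusted p of 0.108 and 0.213), without the day 3 Cre-negative library (0.93 and 1.05, adjusted p of 0.265 and 0.247) and without the Cre-positive one (1.04 and 0.86, adjusted p of 0.166 and 0.281). In arterial-like cells Plaur, the urokinase receptor, rose by 2.38 ± 0.24 (adjusted p = 5.9e-06), Anxa2 rose by 1.10 ± 0.18, and Plgrkt, a plasminogen receptor, fell by 0.62 ± 0.16, 3 of 14 tested beside 5.42%. All 3 calls were lost without the day 3 Cre-negative library (2.38, 1.26 and -0.57, adjusted p of 0.0614, 0.105 and 0.32), and those of Anxa2 and Plgrkt also without the Cre-positive one and in cells with Y-linked UMIs. Plgrkt was also lost with DESeq2 and without either vehicle library. In the unnamed clusters Selp rose by 1.39 ± 0.19 (adjusted p = 0.0227), 1 of 20 beside 1.79%. Selp was lost in cells with Y-linked UMIs (1.398, adjusted p = 0.146) and without either day 3 library (1.34 and 1.46, adjusted p of 0.36 and 0.517). Without the day 3 Cre-negative library, calls over all genes fell in these 3 groups of cells (see the last section). In the unnamed clusters they fell without the Cre-positive one too. A call lost there says little of the genes named. DESeq2 called 2, 2 and 3 genes of the list in these classes. The medians of these lists were 0.02, -0.03 and 0.23, beside -0.01 for all genes in each.

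Outside endothelium, Serpine2, Procr, Tfpi, Thbd, Plat and Plau were found in stromal cells. Tfpi was 58.1 to 97.5 CPM over all fibroblast-like cells of the CD45 libraries and 38.0 to 78.5 in perivascular-like cells, ranges that overlap that of arterial-like cells. Perivascular-like cells of the CD31 libraries held Serpine2 at 187, 235, 416, 237, 222 and 248 CPM and Procr at 193, 156, 180, 210, 262 and 272, with 17 to 50 cells per library, the 17 behind the highest Serpine2 value. The CD45 libraries contained 1117 to 1880 fibroblast-like cells, in 5 clusters. The cluster led by Pi16 held Thbd at 521, 368, 289, 602, 454 and 321 CPM, Plat at 335, 371, 392, 414, 275 and 243, and Plau at 138, 147, 191, 115, 188 and 126.

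The Pi16 cluster had more Plau in every library than any endothelial class with at least 20 cells. The cluster led by Lum held Thbd at 139 to 238 CPM, Plat at 84.5 to 172 and Plau at 23.7 to 51.7. In the vehicle Cre-positive library the Pi16 cluster also had the most Serpine2, 238 CPM against 26.6 to 86.6 in the other 5, and the most Procr, 311 against 78.4 to 185. Vwf had no UMI in Pi16 cells, and F8 had 0 to 9 UMIs per library there.

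T-like and B-like cells of the CD45 libraries held at most 7.60 CPM of any member. Monocyte- or macrophage-like cells of the same libraries held Plau at 4.77 to 41.2 CPM and Procr at 8.99 to 28.2. Granulocyte-like cells of the CD31 libraries held Serpine2 at 108 and 348 CPM in the 2 libraries with more than 20 of them (81 and 38 cells). Free RNA in the CD45 libraries held Plau at 5.68 to 32.1 CPM and Vwf at 1.21 to 5.35, and over all fibroblast-like cells Vwf was 3.17 to 5.20 CPM.

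**Figure D5:**
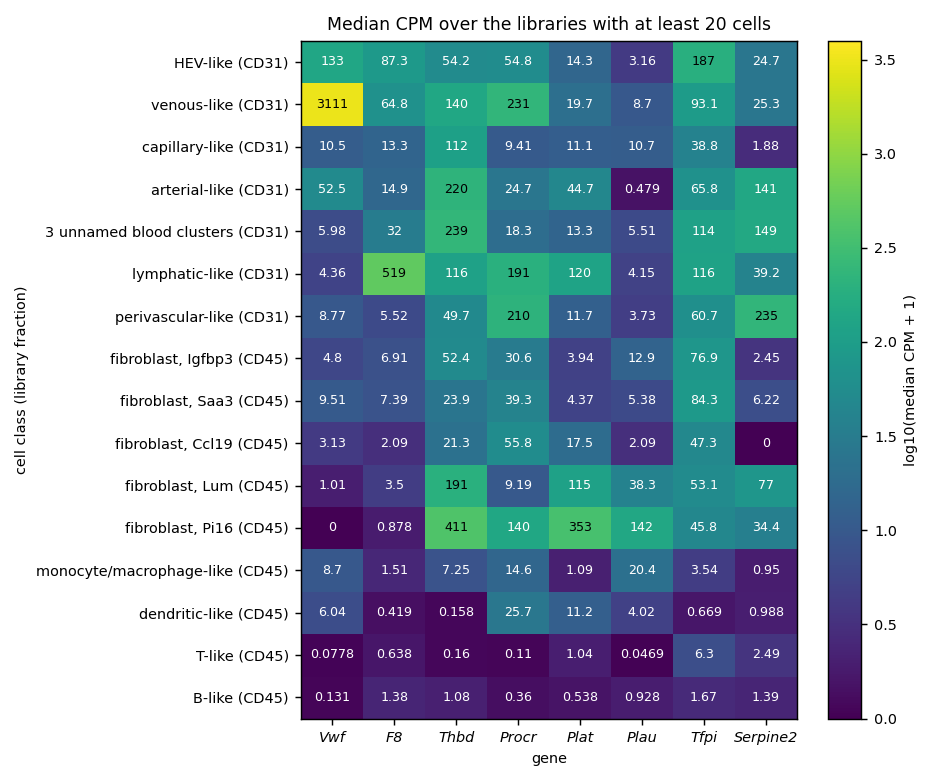
Median level (CPM, printed in each cell and coloured as log10 of CPM + 1) of the 8 genes in endothelial and perivascular classes of the CD31 libraries and fibroblast and immune classes of the CD45 libraries, over libraries with at least 20 cells of the class. Read down a column, Vwf peaks in venous-like, F8 in lymphatic-like, Plat and Plau in Pi16 fibroblast-like and Serpine2 in perivascular-like cells.

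Genes of the most similar pattern were found over 97 class-by-library sums of the CD31 libraries (19 classes), by Pearson r of log2(CPM + 1) among 7272 genes averaging at least 20 CPM. The sums of a library share its depth and free RNA, and r is a description. Thbd was closest to S100a16 (0.957), Ephb4 (0.956) and Myct1 (0.954), and Tfpi to Ptprk (0.942), Tshz2 (0.926) and Dpysl3 (0.925). F8 was closest to Cemip2 (0.843), Vwf to Chp2 (0.827), Plat to Jag1 (0.811), Serpine2 to Itih5 (0.797) and Plau to Ptgs1 (0.674). Among the members themselves the highest r was between Thbd and Tfpi (0.846) and the lowest between Plau and Serpine2 (0.069).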

How the data were processed

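The 12 libraries of mouse lymph node cells were analysed, with 1 per label, treatment and fraction. The deposited matrices hold raw UMI counts per gene and barcode, which the authors made with Cell Ranger 7.0.1 on mm10, per the submitters' processing notes, while the software tag in the file headers is of an older form. The counting strand and the number of mice per library are not given in the sources used here. A barcode was taken as a cell from 1000 UMIs and 500 genes upward, with no more than 10% of UMIs mitochondrial. Scrublet's own threshold failed in 3 libraries, so the highest doublet scores, 0.8% per 1000 barcodes, were removed. In the CD31 vehicle Cre-negative and day 3 Cre-positive libraries the removed barcodes had fewer UMIs than those kept (medians 3932.5 and 4325, and 2203 and 3433), so doublets may remain there. Cells were clustered with scanpy 1.11.5 (2000 variable genes without 58 haemostasis genes, 30 components, 20 neighbours, Leiden resolution 1) and classes named from marker lists. UMIs were summed per class and library where it held at least 20 cells.

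The sums were tested with edgeR 4.0.16 (R 4.3.3; quasi-likelihood test, TMM, filterByExpr, Benjamini-Hochberg adjustment over all genes tested, threshold 0.05). Label and treatment entered 1 additive fit per class over 6 CD31 libraries, with 2 residual degrees of freedom, and classes were compared with library as a block. DESeq2 1.42.0 was an alternative, and the fits were tested on simulated data. No label test was made in HEV-like cells, since the genes were selected on that contrast. The members and lists were chosen with earlier results of these data known. Named genes are the 8 members, up to 4 called genes of the other haemostasis list per comparison by size of difference, and for each member up to 3 nearest genes by correlation, and some of these are not reported here. Alternatives were size factors, the low-count filter, cell filters, free RNA subtraction and leaving out each library. Free RNA is the sum over barcodes of 10 to 100 UMIs.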

Additional observations from a re-analysis of the deposited data

Results flagged for a closer look

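The label ratio of Thbd had opposite signs in 2 vessel classes in all 3 pairs of libraries, and some pairs were close to equal. The mean of 3 log2 ratios of CPM + 1, Cre-positive over Cre-negative, was 0.215 in lymphatic-like cells, where the Cre-positive library was higher at all 3 treatments, and -0.118 in arterial-like cells, where it was lower at all 3. The lymphatic-like value rests mostly on the vehicle pair, at 99.75 and 152.7 CPM of Thbd, in which the Ackr4 cluster made up 71.8% and 45.2% of the cells. Thbd had medians of 142.9, 70.2 and 109.5 CPM in the Ackr4, Madcam1 and Lyve1 clusters, and the part of this mix was not tested. Thbd was 195.3 and 195.1 CPM in the vehicle pair of arterial-like cells, and 115.3 and 117.3 at day 3 and 114.9 and 115.8 at day 7 in lymphatic-like cells. Neither fitted label difference passed (edgeR): it was 0.26 ± 0.19 in lymphatic-like (adjusted p = 1) and -0.07 ± 0.13 in arterial-like cells (adjusted p = 0.998). The difference between the classes was not tested.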

How the results depend on the processing

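At day 3 in HEV-like cells 1 member was called, and 0 with RLE size factors, without cells that carry other-type markers, in cells with Y-linked UMIs or with free RNA subtracted, 4 with no filter on low counts, and 0 to 3 when 1 library was left out. In arterial-like cells the 1 call became 0 with DESeq2 or in cells with Y-linked UMIs, 2 with no filter and 0 to 4 when 1 library was left out. In the unnamed blood clusters it became 0, 0, 2 and 0 to 2 under the same settings. By label, no filter on low counts gave 1 call in capillary-like cells (Vwf) and 1 in the unnamed clusters (Serpine2), where leaving out 1 pair of libraries gave 0 to 1. Lymphatic-like cells at day 3 gave 0 to 1 when 1 library was left out. Over all genes at day 3, the 278 calls in HEV-like cells became 1505 with no filter and 81 in cells with Y-linked UMIs, the 559 in arterial-like cells became 145 with DESeq2 and 53 in cells with Y-linked UMIs, and the 232 in the unnamed clusters became 1419 with no filter and 39. Leaving out 1 library gave 0 (day 3 Cre-negative) to 1666 (vehicle Cre-negative) in HEV-like cells, 4 to 832 (the same libraries) in arterial-like cells, and 0 (either day 3 library) to 1406 (day 7 Cre-negative) in the unnamed clusters. The cause was not tested. How many of all genes were called with no filter by label, or in arterial-like cells at day 3, is not given here. The labels carry no replicate numbers, so label fits matched libraries by treatment and class fits by library. Of the values recomputed under an alternative, 272 of 295 by label, 812 of 963 by treatment and 356 of 370 between classes kept their direction and side of the threshold. A value not called in either fit counts as kept, so these shares say little about the few calls by treatment. Sparse members limit the depth: Plau had 2 UMIs in the vehicle Cre-negative HEV-like cells and Serpine2 3 to 7 per library in capillary-like cells.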
